A study of Mus musculus with 32 samples.

Results

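Chrna4, Loxl4, Aqp8, Rnf125 and Ppard are 5 genes whose liver RNA was markedly lower in mice kept under chronic jet lag than in mice kept in a steady light cycle. They were picked for that difference at 12 and 30 weeks of age, without a fixed threshold, out of 23105 genes tested. Their RefSeq identifiers matched 7 probes on the array, 1 each for Chrna4, Rnf125 and Ppard, and 2 each for Loxl4 and Aqp8. All 7 probes passed the filter on dim signals. Because the difference between the schedules chose the genes, every value of it given for them below is a description and carries no test.

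The data are liver RNA profiles of 32 male wild-type C57BL/6 mice from 1-colour Agilent arrays, each hybridised with the RNA of 1 mouse. Under chronic jet lag (CJ), 16 mice were housed singly and, beginning at 4 weeks of age, were transferred back and forth between rooms that differed in light onset by 8 h. In the steady schedule (NS), 16 singly housed mice were kept in one cycle of 12 h light and 12 h dark. Livers were collected at zeitgeber time (ZT, hours after lights on) 2, 10 and 18, at 12 weeks and at 30 weeks. The 12 groups, CJ and NS at each time and age, held 2 mice each at ZT2 and 3 mice each at ZT10 and ZT18. All animals were of 1 strain and 1 sex and carried no introduced allele. How the ZT of a jet-lagged mouse stands to its most recent room change is not given in the labels.

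The liver carries a circadian clock, a loop of transcription factors that drives daily rhythms in many metabolic genes and that is set by light through the brain and by the time of feeding. In chronic jet lag the light cycle moves again before internal rhythms have settled to the previous one. The 5 genes belong to different classes. Chrna4 encodes the alpha 4 subunit of neuronal nicotinic acetylcholine receptors, ion channels opened by acetylcholine. Loxl4 encodes a lysyl oxidase-like enzyme, a family that cross-links collagen and elastin. Aqp8 encodes a water channel of hepatocytes, found in the canalicular membrane through which water enters bile and in inner mitochondrial membranes. Rnf125 encodes a RING-type ubiquitin ligase that, in human cells, marks the viral RNA sensor RIG-I for degradation. Ppard encodes PPAR delta, a nuclear receptor activated by fatty acids that binds DNA together with a retinoid X receptor.

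In assembly GRCm38.p6 the RefSeq annotation places Chrna4 at chr2:181022311-181043579, Aqp8 at chr7:123462294-123468003, Ppard at chr17:28232754-28301469 and Loxl4 at chr19:42592279-42612806. Promoter windows, from 250 bases before to 50 bases after a transcription start, were matched by symbol for 4 of the 5 genes, and Rnf125 was not matched. A search of both strands for 9 motifs known from clock, nuclear receptor or basal promoters found 1 match in these 4 windows. This was the E-box CACGTG, the element bound by the CLOCK and BMAL1 proteins, in the Aqp8 window, and 7.15% of 32851 mouse promoter windows hold the same letters. The Aqp8 window is shown for that match, printed in capitals, which begins at base -75 and reads the same on both strands. The Ppard window is shown beside it because the fitted difference of Ppard had the smallest error of the 5, and it holds none of the 9 motifs. Both are from RefSeq, plus strand of GRCm38.p6, Aqp8 at chr7:123462044-123462343 and Ppard at chr17:28232504-28232803.
Aqp8: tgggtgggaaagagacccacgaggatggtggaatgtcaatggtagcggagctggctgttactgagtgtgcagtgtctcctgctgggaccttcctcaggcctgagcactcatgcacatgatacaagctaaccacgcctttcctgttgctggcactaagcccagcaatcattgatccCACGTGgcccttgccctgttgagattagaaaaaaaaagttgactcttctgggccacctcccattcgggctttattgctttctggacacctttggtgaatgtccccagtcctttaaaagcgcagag
Ppard: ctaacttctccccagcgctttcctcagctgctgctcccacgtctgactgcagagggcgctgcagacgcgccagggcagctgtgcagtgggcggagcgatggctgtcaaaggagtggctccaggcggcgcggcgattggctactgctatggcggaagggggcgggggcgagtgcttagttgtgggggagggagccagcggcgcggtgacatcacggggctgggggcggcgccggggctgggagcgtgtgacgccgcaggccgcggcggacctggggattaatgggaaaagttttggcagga
The other motifs searched were the E-box variant CACGTT, which 4.68% of all windows hold, the D-box sequence TTATGTAA, held by 0.938%, and its variant TTACGTAA, held by 0.119%. The nuclear receptor motif AGGTCA is found in 16.3% of the windows, the PPAR element that repeats it in 0.0396% and the ROR element that contains it in 0.219%, so those letters overlap. The STAT5 element TTCNNNGAA is found in 8.30% of the windows and the TATA box TATAAA in 13.6%. A match shows the letters only, and a window without one says nothing of a factor's binding. The GC content was 74.3% in the Chrna4 window, 75% in the Loxl4 window, 68.3% in the Ppard window and 52.0% in the Aqp8 window, against a median of 52.7% over all windows. The Chrna4 window (chr2:181039128-181039427) belongs to a transcript start inside the annotated gene and not to the outermost one.

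The scanner software called 24178 to 32337 of the 55681 probes well above background, depending on the array, and 0 spots were saturated. A level is the log2 signal of a probe relative to the 75th percentile of its array, so a level of 0 lies at that percentile. Each gene's probe has its own brightness, so levels are compared between mice and not between genes. Replicates are separate animals, numbered within a group, and precision is limited by how few arrays each group has. All 9 hepatocyte markers on the array were well above background on all 32 arrays, and their mean level had a median of 8.97 in CJ and 9.01 in NS mice at 12 weeks, and of 9.0 in CJ and 8.99 in NS mice at 30 weeks. Single hepatocyte markers did differ between the schedules by the limma test used below. Of the 9, 0 were called higher and 1 lower in CJ mice at 12 weeks, and 1 higher and 2 lower at 30 weeks. Among all genes 4.44% were called at 12 weeks and 6.25% at 30 weeks. RNA of other tissues was present to varying degrees. The mean of 10 pancreatic acinar markers ranged from -2.20 to 4.39 (median -0.07) in CJ and from -2.55 to 1.56 (median -1.67) in NS mice at 12 weeks, and from -2.44 to 3.48 (median -1.97) in CJ and from -2.42 to 2.79 (median -2.17) in NS mice at 30 weeks. The mean of 12 skeletal muscle markers ranged from -3.55 to 2.29 in CJ and from -4.43 to 2.20 in NS mice at 12 weeks, and from -4.48 to 4.25 in CJ and from -4.24 to 2.90 in NS mice at 30 weeks. The mean of 3 adipocyte markers had a median of -0.35 in CJ and -1.45 in NS mice at 12 weeks, and its part in the results was not tested. Of the markers present on the array, 5 of 17 acinar and 3 of 13 muscle markers were well above background on all 32 arrays, and 0 were below it on every array.

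**Figure D1:**
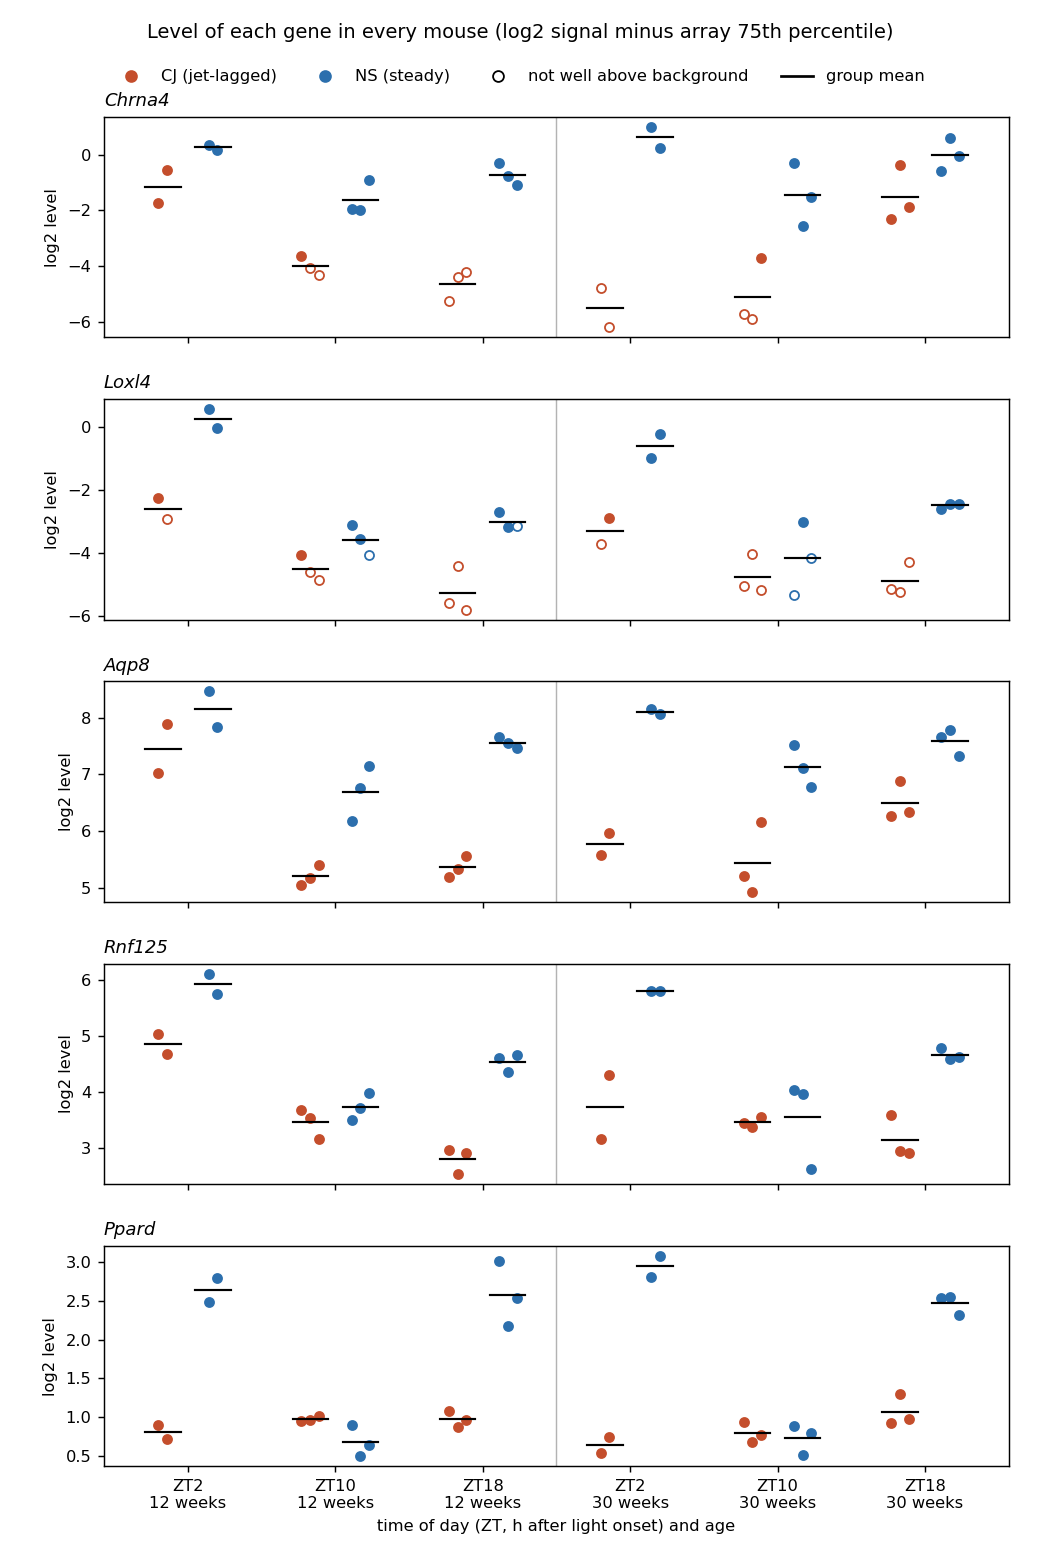
Level of each gene in every mouse (vertical axis, log2 signal minus the array's 75th percentile) by time of day and age (horizontal axis), CJ mice in orange to the left of NS mice in blue, with black bars at group means and open circles where the probe was not well above background. Ppard in CJ mice stays between 0.53 and 1.29 in all 6 groups, while in NS mice it is low at ZT10 only.

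Chrna4 had the lowest CJ-minus-NS difference of all 23105 genes at both ages. Averaged over the 3 times, its level in CJ mice differed from that in NS mice by -2.59 ± 0.34 (SE) on the log2 scale at 12 weeks and by -3.77 ± 0.34 at 30 weeks. The probe was well above background on 3 of 8 CJ and 8 of 8 NS arrays at 12 weeks, and on 4 of 8 CJ and 8 of 8 NS arrays at 30 weeks. No fold is given for these averages, because they include CJ arrays below the background call. At ZT2, Chrna4 measured -1.75 and -0.56 in CJ mice of 12 weeks, against 0.34 and 0.18 in NS mice. At ZT10, Chrna4 measured -3.65, -4.08 and -4.32 in CJ mice of 12 weeks, against -1.96, -2.0 and -0.92 in NS mice. At ZT18, Chrna4 measured -5.27, -4.41 and -4.23 in CJ mice of 12 weeks, against -0.31, -0.76 and -1.11 in NS mice. At 12 weeks no CJ mouse reached the NS range at any of the 3 times, and the difference was -1.60 ± 0.73 for ZT2, -2.48 ± 0.58 for ZT10 and -3.70 ± 0.58 for ZT18. At ZT18, where 0 of 3 CJ arrays were well above background, CJ mice were at least 6.67-fold lower once those arrays were raised to the background level.

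At 30 weeks 3 of the 4 CJ mice with Chrna4 well above background were those at ZT18. At ZT2, Chrna4 stood at -4.80 and -6.21 in CJ mice of 30 weeks, against 0.99 and 0.24 in NS mice. At ZT10, Chrna4 stood at -5.71, -5.91 and -3.70 in CJ mice of 30 weeks, against -0.32, -2.55 and -1.52 in NS mice. At ZT18, Chrna4 stood at -2.31, -0.36 and -1.88 in CJ mice of 30 weeks, against -0.60, 0.59 and -0.06 in NS mice. Both CJ mice at ZT2 were below the background call while both NS mice were at their highest, a difference of -6.26 ± 0.73 that corresponds to at least 26.0-fold lower. At ZT18 all 3 CJ mice were well above background, 1 of them overlapped the NS mice, and the difference was -1.76 ± 0.58. Across the 12 groups the 8 highest means overlapped their neighbours in rank, and the only step without overlap lay below NS ZT10 at 12 weeks (-1.63 ± 0.61, SD), under which came CJ mice at ZT10 and ZT18 of 12 weeks and at ZT10 and ZT2 of 30 weeks.

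Loxl4 had the third lowest difference at both ages, and its probe was dim. Averaged over the times, CJ minus NS was -2.01 ± 0.26 at 12 weeks and -1.92 ± 0.26 at 30 weeks, with no fold given for the same reason. It was well above background on 2 of 8 CJ and 6 of 8 NS arrays at 12 weeks, and on 1 of 8 CJ and 6 of 8 NS arrays at 30 weeks. At ZT2, Loxl4 measured -2.25 and -2.91 in CJ mice of 12 weeks, against 0.58 and -0.01 in NS mice. At ZT10, Loxl4 measured -4.05, -4.61 and -4.84 in CJ mice of 12 weeks, against -3.11, -3.56 and -4.06 in NS mice. At ZT18, Loxl4 measured -5.60, -4.41 and -5.80 in CJ mice of 12 weeks, against -2.70, -3.16 and -3.13 in NS mice. The CJ mice lay below the NS mice at ZT2 and ZT18 and overlapped them at ZT10, where 1 of 3 CJ and 2 of 3 NS arrays were well above background. At ZT2, Loxl4 stood at -3.71 and -2.87 in CJ mice of 30 weeks, against -0.97 and -0.21 in NS mice. At ZT10, Loxl4 stood at -5.06, -4.04 and -5.18 in CJ mice of 30 weeks, against -5.32, -3.01 and -4.14 in NS mice. At ZT18, Loxl4 stood at -5.13, -5.23 and -4.29 in CJ mice of 30 weeks, against -2.60, -2.42 and -2.42 in NS mice. The same pattern held at 30 weeks, with overlap at ZT10, where 0 of 3 CJ and 1 of 3 NS arrays were well above background and no fold is given. The differences were -2.74 ± 0.56, -0.77 ± 0.45 and -2.51 ± 0.45 at ZT2, ZT10 and ZT18 of 12 weeks, and -2.86 ± 0.56, -0.77 ± 0.45 and -2.14 ± 0.45 at 30 weeks. At ZT18, 0 of 3 CJ arrays were well above background at either age. With those arrays raised to the background level, CJ mice were at least 1.39-fold lower at 12 weeks and 1.98-fold lower at 30 weeks. The second Loxl4 probe gave -1.50 at 12 weeks and -1.60 at 30 weeks, and its level followed the first with a Pearson r of 0.889 over the 32 arrays. That probe was well above background on only 3 of 16 CJ and 7 of 16 NS arrays. Highest of the 12 groups were NS mice at ZT2 of 12 weeks (0.29 ± 0.42, SD) and of 30 weeks (-0.59 ± 0.54), each without overlap with the next, and the other 10 groups formed a run of overlapping neighbours.

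Aqp8 was bright in every mouse and well above background on all 32 arrays. Averaged over the times, it was 2.75-fold lower in CJ mice at 12 weeks (-1.46 ± 0.16) and 3.27-fold lower at 30 weeks (-1.71 ± 0.16). At ZT2, Aqp8 measured 7.02 and 7.88 in CJ mice of 12 weeks, against 8.46 and 7.84 in NS mice. At ZT10, Aqp8 measured 5.05, 5.17 and 5.41 in CJ mice of 12 weeks, against 6.18, 6.76 and 7.15 in NS mice. At ZT18, Aqp8 measured 5.19, 5.34 and 5.57 in CJ mice of 12 weeks, against 7.65, 7.55 and 7.47 in NS mice. At ZT2 of 12 weeks 1 CJ mouse reached the NS level, and at the other times the schedules were fully apart. At ZT2, Aqp8 stood at 5.58 and 5.97 in CJ mice of 30 weeks, against 8.15 and 8.06 in NS mice. At ZT10, Aqp8 stood at 5.21, 4.93 and 6.16 in CJ mice of 30 weeks, against 7.52, 7.11 and 6.78 in NS mice. At ZT18, Aqp8 stood at 6.26, 6.88 and 6.33 in CJ mice of 30 weeks, against 7.65, 7.78 and 7.33 in NS mice. At 30 weeks no CJ mouse reached the NS mice of its time. The hours with the largest difference were ZT18 at 12 weeks (-2.15 ± 0.28, against -0.68 ± 0.35 at ZT2 and -1.55 ± 0.28 at ZT10) and ZT2 at 30 weeks (-2.35 ± 0.35, against -1.59 ± 0.28 at ZT10 and -1.19 ± 0.28 at ZT18). The second Aqp8 probe gave -1.86 at 12 weeks and -1.76 at 30 weeks and followed the first with r = 0.983 over the 32 arrays. On that probe the schedules did not overlap at ZT2 of 12 weeks, with 2.95 and 2.97 in CJ mice against 4.53 and 3.92 in NS mice. Ranked over the 12 groups, all 6 NS means and the CJ mean at ZT2 of 12 weeks (7.45 ± 0.61, SD) were above the other 5 CJ means, although CJ mice at ZT18 of 30 weeks (6.49 ± 0.34) overlapped the lowest NS group.

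Rnf125 was 2.04-fold lower in CJ mice at 12 weeks (-1.03 ± 0.15) and 2.33-fold lower at 30 weeks (-1.22 ± 0.15), averaged over the times. At ZT2, Rnf125 measured 5.04 and 4.67 in CJ mice of 12 weeks, against 6.11 and 5.74 in NS mice. At ZT10, Rnf125 measured 3.67, 3.54 and 3.15 in CJ mice of 12 weeks, against 3.50, 3.72 and 3.98 in NS mice. At ZT18, Rnf125 measured 2.97, 2.53 and 2.90 in CJ mice of 12 weeks, against 4.60, 4.35 and 4.65 in NS mice. The schedules overlapped at ZT10 and were apart at ZT2 and ZT18. At ZT2, Rnf125 stood at 3.15 and 4.30 in CJ mice of 30 weeks, against 5.80 and 5.80 in NS mice. At ZT10, Rnf125 stood at 3.44, 3.38 and 3.55 in CJ mice of 30 weeks, against 4.04, 3.96 and 2.63 in NS mice. At ZT18, Rnf125 stood at 3.59, 2.94 and 2.91 in CJ mice of 30 weeks, against 4.78, 4.58 and 4.63 in NS mice. The overlap at ZT10 was there at 30 weeks too, through 1 NS mouse that was lower than all 3 CJ mice. The differences were -1.11 ± 0.33, -0.24 ± 0.26 and -1.75 ± 0.26 at ZT2, ZT10 and ZT18 of 12 weeks, and -2.0 ± 0.33, -0.19 ± 0.26 and -1.47 ± 0.26 at 30 weeks. NS mice at ZT2 stood highest (5.93 ± 0.26 at 12 weeks), then a run of CJ mice at ZT2 of 12 weeks (4.86 ± 0.26) and NS mice at ZT18 that overlapped their neighbours, and then, without overlap, the other 7 groups.

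Ppard was 2.06-fold lower in CJ mice at 12 weeks (-1.05 ± 0.09) and 2.34-fold lower at 30 weeks (-1.23 ± 0.09), averaged over the times, and this average came from 2 of the 3 hours. At ZT2, Ppard measured 0.90 and 0.72 in CJ mice of 12 weeks, against 2.48 and 2.79 in NS mice. At ZT10, Ppard measured 0.95, 0.96 and 1.01 in CJ mice of 12 weeks, against 0.90, 0.49 and 0.64 in NS mice. At ZT18, Ppard measured 1.07, 0.87 and 0.96 in CJ mice of 12 weeks, against 3.02, 2.18 and 2.54 in NS mice. At ZT10 every CJ mouse was above every NS mouse, and at ZT2 and ZT18 every CJ mouse was below. At ZT2, Ppard stood at 0.53 and 0.74 in CJ mice of 30 weeks, against 2.81 and 3.08 in NS mice. At ZT10, Ppard stood at 0.93, 0.67 and 0.76 in CJ mice of 30 weeks, against 0.88, 0.51 and 0.79 in NS mice. At ZT18, Ppard stood at 0.92, 1.29 and 0.97 in CJ mice of 30 weeks, against 2.54, 2.55 and 2.32 in NS mice. At 30 weeks the schedules overlapped at ZT10 and were apart at ZT2 and ZT18. The differences were -1.82 ± 0.19, 0.33 ± 0.15 and -1.65 ± 0.15 at ZT2, ZT10 and ZT18 of 12 weeks, and -2.37 ± 0.19, 0.09 ± 0.15 and -1.40 ± 0.15 at 30 weeks. The 4 NS groups at ZT2 and ZT18 held the top of the order (means of 2.47 to 2.94), and the 6 CJ groups and NS mice at ZT10 followed, without overlap with them, at means of 0.64 to 1.06 in a run of overlapping neighbours.

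**Figure D2:**
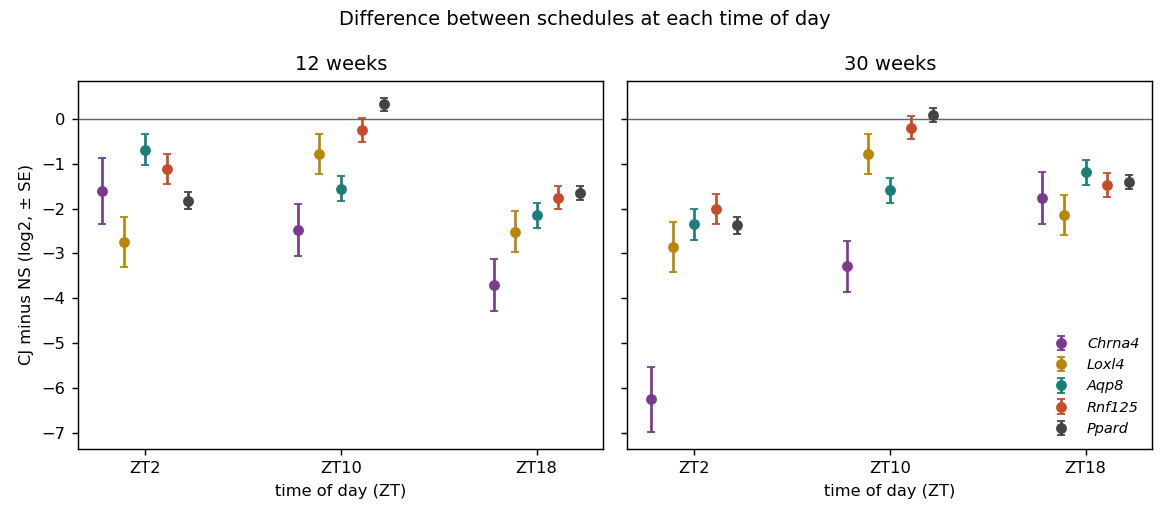
CJ minus NS (vertical axis, log2, points with SE bars) for each gene at each time of day (horizontal axis), 12 weeks at left and 30 weeks at right. At ZT10 Loxl4, Rnf125 and Ppard lie within 0.77 of 0, and Aqp8 is lowest at ZT18 at 12 weeks and at ZT2 at 30 weeks. Most Chrna4 and Loxl4 values of CJ mice were not well above background.

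The brightest probe stood for each gene in the counts that follow. Counted over the 5 genes, all CJ mice were below all NS mice for 4, 2 and 5 genes at the 3 successive times of 12 weeks, and for 5, 2 and 4 genes at those of 30 weeks. Among all genes tested the same was true of 21.8%, 8.72% and 11.2% at 12 weeks, and of 31.3%, 9.67% and 9.97% at 30 weeks. Over all times together, 0 of the 5 genes had all 8 CJ mice below all 8 NS mice at either age, against 0.013% of all genes at 12 weeks and 0.0866% at 30 weeks. By limma's test with Benjamini-Hochberg adjustment at 0.05, all 5 genes were called lower at both ages, as 2.29% of all genes were at 12 weeks and 4.48% at 30 weeks, and nothing is read from this since the contrast chose them. From the lowest difference upward, Aqp8 ranked 8 and 6 of 23105 genes at 12 and 30 weeks, Rnf125 39 and 18, and Ppard 35 and 15. In whole liver tissue, fewer cells of a type and less RNA per cell cannot be told apart.

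Each slide held 2 CJ and 2 NS arrays, so the schedules were also set against each other within slides. The arrays of a slide came from differing hours and ages, which these averages did not hold fixed. Such averages describe the contrast that chose the genes, carry no test and were not counted over all genes. CJ mice averaged lower than NS mice on 8 of 8 slides for Aqp8 (-2.39 to -0.11) and Ppard (-1.68 to -0.55), and on 7 of 8 slides for Chrna4 (-4.17 to 0.26), Loxl4 (-4.21 to 0.15) and Rnf125 (-2.13 to 0.04). Acinar markers had a higher median in CJ mice at 12 weeks, as given above, and 10 arrays lay above 0.92, the midpoint of their range. Leaving out those 10 arrays left 1 mouse each in CJ ZT2, CJ ZT10 and NS ZT18 of 12 weeks and in CJ ZT10 of 30 weeks. Without those 10 arrays, the 12-week and 30-week differences were -2.10 and -4.41 for Chrna4, -2.08 and -1.77 for Loxl4, -1.36 and -1.91 for Aqp8, -1.06 and -1.12 for Rnf125, and -1.06 and -1.23 for Ppard. With the acinar and muscle marker means as covariates they lay between -2.62 (Chrna4) and -1.03 (Rnf125) at 12 weeks and between -3.77 (Chrna4) and -1.23 (Rnf125) at 30 weeks. The differences of the dim probes were smaller after normexp correction, which here added an offset of 50 to every signal, with quantile normalisation. Chrna4 then differed by -1.11 at 12 weeks and -1.48 at 30 weeks, and Loxl4 by -0.73 and -0.58. An added offset narrows log2 differences between dim signals, and its part in the smaller size was not tested.

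The daily course of the genes was first described within each schedule. In NS mice all 5 genes had their highest mean at ZT2 and their lowest at ZT10, at both ages, although Loxl4 at ZT10 was well above background in only 2 of 3 NS mice at 12 weeks and 1 of 3 at 30 weeks. The range between those means in NS mice of 12 weeks was 1.89 for Chrna4, 3.86 for Loxl4, 1.45 for Aqp8, 2.20 for Rnf125 and 1.96 for Ppard, and in NS mice of 30 weeks it was 2.08, 3.56, 0.97, 2.26 and 2.22 in the same order. The NS mice at ZT2 and ZT18 overlapped in some cases, for example for Ppard at 12 weeks (means 2.64 and 2.58) and Chrna4 at 30 weeks (0.62 and -0.02). How many of all genes had these hours in NS mice was not counted, and NS levels entered the choice of the genes. In CJ mice the hours differed between genes and ages. Chrna4 in CJ mice was highest at ZT2 at 12 weeks and at ZT18 at 30 weeks, and Loxl4 at ZT2 at both ages; their lowest hour and range are not given, since most of their other CJ values were below the background call. Rnf125 in CJ mice was highest at ZT2 and lowest at ZT18 at both ages, with a range of 2.06 at 12 weeks and 0.58 at 30 weeks. Aqp8 in CJ mice was lowest at ZT10 at both ages and highest at ZT2 at 12 weeks (range 2.24) and at ZT18 at 30 weeks (range 1.06). Ppard in CJ mice had a range of 0.16 at 12 weeks and 0.42 at 30 weeks. Whether a course differed between the schedules was not tested for these genes, because each such difference is part of the contrast that chose them.

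Time of day could be tested on the average of CJ and NS mice, which hold equal numbers at each time. For plain means with equal spread between mice, this average is uncorrelated with the difference of the schedules. With slides as random blocks and a spread that varied between groups, that holds only approximately. All adjusted p-values below are from limma over 23105 genes. At 12 weeks all 5 genes varied with time of day, as did 21.2% of all genes. Loxl4 had fitted means of -1.14 at ZT2, -4.07 at ZT10 and -4.11 at ZT18 (range 2.97, adjusted p = 2.76e-06). Chrna4 averaged -0.42, -2.73 and -2.80 at the same hours (range 2.38, adjusted p = 0.000856). These 2 genes were high at ZT2 only, on the average of the schedules. Chrna4 was well above background on 1 of 3 CJ arrays at ZT10 and 0 of 3 at ZT18 of 12 weeks, so its averages at those hours have no firm order. Loxl4 passed the filter on dim signals only through NS mice, at ZT2 of both ages and at ZT18 of 30 weeks. It was well above background in 3 of the 16 CJ mice. Its time-of-day calls at both ages therefore rest in part on the groups that let it pass. Rnf125 averaged 5.39, 3.53 and 3.73 at ZT2, ZT10 and ZT18 (range 1.85, adjusted p = 2.19e-06), and Aqp8 averaged 7.79, 5.97 and 6.45 (range 1.82, adjusted p = 1.13e-05). Ppard averaged 1.73, 0.83 and 1.76 (range 0.93, adjusted p = 3.71e-06), low at ZT10 and high before and after it. The median range of the 4888 genes called was 0.51, and the ranges of the 5 genes were all above it. After normexp correction (offset 50) with quantile normalisation the ranges of the dim genes were smaller but still called. They were 1.16 for Loxl4 and 1.09 for Chrna4 at 12 weeks, and 0.79 for Loxl4 and 0.93 for Chrna4 at 30 weeks.

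At 30 weeks all 5 genes again varied with time of day, as did 15.1% of all genes. All 5 were lowest at ZT10, against 3 of 5 at 12 weeks. The lowest hour was ZT10 for 28.9% of the 3480 genes called at 30 weeks, whose median range was 0.49, and for 31.6% of those called at 12 weeks. Loxl4 averaged -1.95 at ZT2, -4.50 at ZT10 and -3.63 at ZT18 (range 2.55, adjusted p = 0.000131). Chrna4 averaged -2.47, -3.28 and -0.76 (range 2.52, adjusted p = 0.000821), and so was high at ZT18 on this average, although its highest NS mean was at ZT2. It was well above background on 0 of 2 CJ arrays at ZT2 and 1 of 3 at ZT10, so the order of its ZT2 and ZT10 averages is not firm. Rnf125 averaged 4.77, 3.51 and 3.90 (range 1.26, adjusted p = 0.000718), and Ppard averaged 1.78, 0.75 and 1.78 (range 1.04, adjusted p = 2.27e-06). Aqp8 averaged 6.95, 6.29 and 7.03 (range 0.75, adjusted p = 0.0237). The Aqp8 call was lost without any 1 of 4 mice, which were NS ZT10 mouse 3 (adjusted p = 0.0712), CJ ZT10 mouse 1 (0.0575) or mouse 2 (0.103), and CJ ZT18 mouse 2 (0.0606). It was also lost with the slide as a fixed block (range 0.73, 0.102) and with the marker covariates (range 0.78, 0.0612). Without the 10 arrays rich in acinar markers, a fit with 1 mouse in some groups, the range was 0.85. In these last 3 fits the range was close to or above that of 0.75 reported first.

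Muscle markers also moved with the hour: their mean level had medians of -2.49, -0.67 and 1.59 over the mice of both schedules at ZT2, ZT10 and ZT18 of 12 weeks and of -4.21, -2.09 and 2.70 at 30 weeks. With acinar and muscle levels as covariates, 5 of 5 genes at 12 weeks (adjusted p of 1.35e-05 to 0.00525) and 4 of 5 at 30 weeks (3.2e-05 to 0.0151, Aqp8 excepted) still varied with time of day. The ZT2 groups, of 2 mice each, carried most of these calls. With ZT10 and ZT18 alone, 1 of 5 genes varied at 12 weeks, Ppard (range 0.89, adjusted p = 0.000195), and 2 of 5 at 30 weeks, Ppard (1.06, adjusted p = 5.17e-05) and Chrna4 (2.48, adjusted p = 0.00258).

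**Figure D3:**
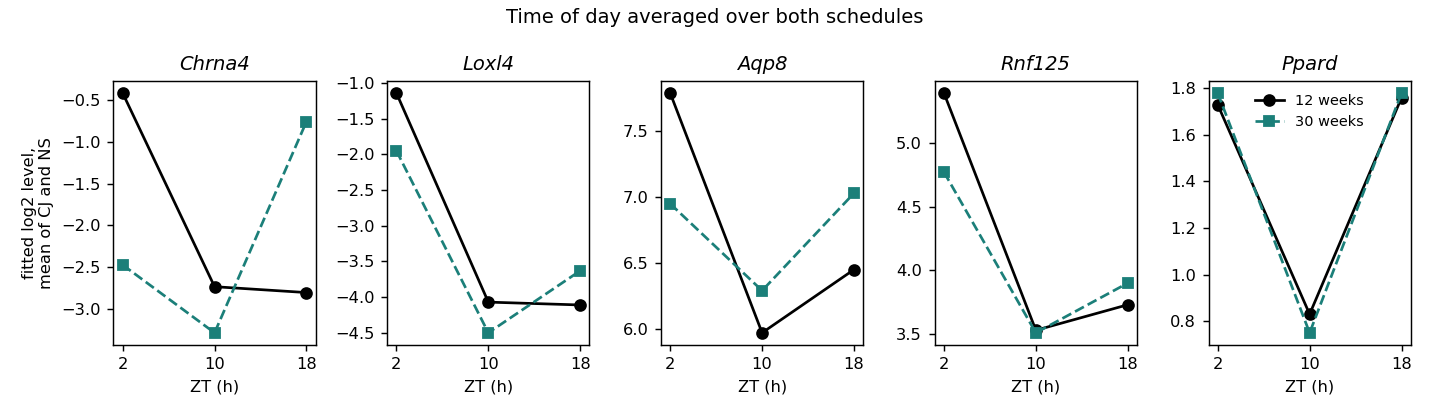
Fitted level averaged over CJ and NS mice (vertical axes, log2, a scale of its own for each gene) against time of day (horizontal axes, ZT in hours), for 12 weeks (black circles) and 30 weeks (green squares). The lines of Ppard nearly coincide, and that of Chrna4 peaks at ZT2 at 12 weeks and at ZT18 at 30 weeks. In NS mice alone the highest Chrna4 mean was at ZT2 at both ages.

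Age was compared in the same way, as the mean of both schedules and all 3 times. No gene of the 5 was called between 30 and 12 weeks, while 4.35% of all genes were (2.26% higher and 2.09% lower at 30 weeks), and 0 of 5 had an unadjusted p under 0.05. The 30-minus-12-week difference was -0.19 ± 0.24 for Chrna4 (adjusted p = 0.755), which averaged -2.17 at 30 weeks and -1.98 at 12 weeks. It was -0.26 ± 0.19 for Loxl4 (adjusted p = 0.532), -0.16 ± 0.11 for Rnf125 (0.495), 0.02 ± 0.12 for Aqp8 (0.956) and -0.01 ± 0.06 for Ppard (0.976). A missed threshold does not show that ages were alike, and without the ZT2 groups the uncalled difference of Chrna4 was 0.74 and that of Aqp8 0.45. Whether the daily course changed with age was tested as time of day by age, again over both schedules. Chrna4 was the only one of the 5 genes called (adjusted p = 0.00827, range of the age differences over the hours 4.09), as were 0.351% of all genes. Its highest NS mean was at ZT2 at both ages, and its highest CJ mean was at ZT2 at 12 weeks and at ZT18 at 30 weeks. The call was lost in 3 other fits: without the ZT2 groups the range was 2.44 (adjusted p = 0.998), with the slide as a fixed block it was 4.34 (0.0846), and after normexp correction it was 1.2 (0.224). The ranges of the others were 1.43 for Aqp8 (adjusted p = 0.126), 1.29 for Loxl4 (0.694), 0.78 for Rnf125 (0.694) and 0.14 for Ppard (0.99).

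How the genes varied together was examined across the 16 mice of each schedule separately, in 20 relations between pairs, with permutation tests adjusted over the 20. In NS mice all 10 pairs were positively correlated, with Pearson's r of 0.58 (Chrna4 with Loxl4) to 0.88 (Aqp8 with Rnf125), and all 10 had permutation p-values under 0.05 for both r and Spearman's rho after adjustment. For the pair Aqp8 and Rnf125 in NS mice, rho was 0.89 (adjusted permutation p = 0.0003 for r and 0.0001 for rho). Leaving out the 2 mice farthest from the median left r between 0.56 and 0.90 in NS mice. How many pairs among all genes would pass the same tests was not counted, so nothing particular to these genes is read from the 10 pairs. Loxl4 was well above background in only 12 of the 16 NS mice and passed the filter through NS groups, which limits its NS pairs too. In CJ mice r ranged from -0.52 to 0.82. Chrna4 was well above background in 7 and Loxl4 in 3 of the 16 CJ mice, so no test is read from the 7 CJ pairs that hold either gene, among them Chrna4 with Aqp8 (r = 0.82), Loxl4 with Rnf125 (r = 0.77) and Loxl4 with Ppard (r = -0.52). Of the 3 CJ pairs of genes well above background in every mouse, Aqp8 and Rnf125 had r = 0.56 and rho = 0.23 (adjusted permutation p = 0.0397 and 0.492), and without 2 mice r was -0.02. Rnf125 and Ppard had r = -0.32 (adjusted permutation p = 0.268) and Aqp8 and Ppard r = 0.03 (0.915) in CJ mice. The 16 mice of a schedule span 3 times and both ages and share slides, the permutations did not hold time and age fixed, so the daily course that all 5 genes share in NS mice is part of these r, a slide holds too few mice of 1 schedule for a value within it, and the difference between schedules was not tested.

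**Figure D4:**
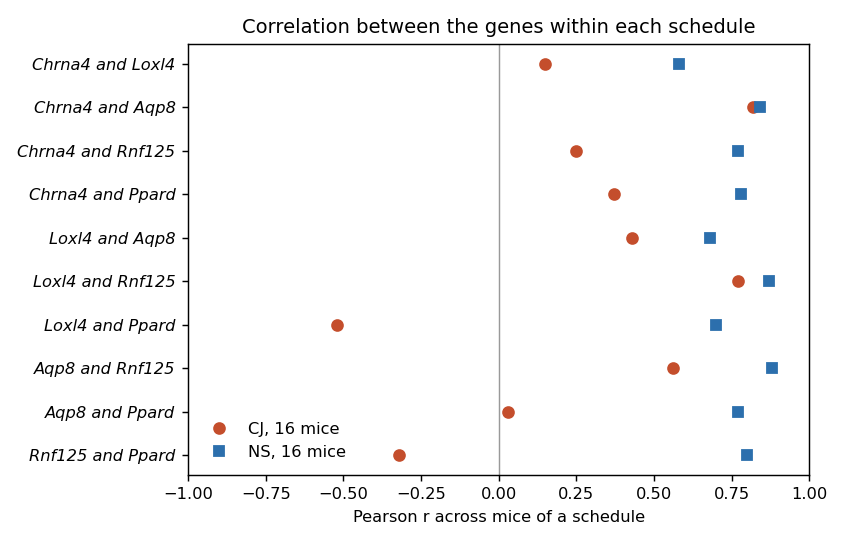
Pearson's r (horizontal axis) between each pair of genes (vertical axis) across the 16 CJ mice (orange circles) and the 16 NS mice (blue squares). All 10 NS values lie between 0.58 and 0.88, and the CJ values spread between -0.52 and 0.82, those with Chrna4 or Loxl4 resting mostly on signals not well above background.

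Over the 12 group means, which share slides and the contrast that chose the genes, likeness is a description with no test. Loxl4, whose CJ values were mostly below the background call, and Rnf125 had r = 0.98: Rnf125 was the gene most like Loxl4 among 14077 named genes, and Loxl4 ranked 2 for Rnf125. Aqp8 ranked 4 for Chrna4 (r = 0.94). Outside the 5, the genes most like Chrna4 were Pstpip2 (r = 0.964), the acetyl-CoA synthetase gene Acss2 (0.962) and the glutathione S-transferase gene Gstm7 (0.957). Those most like Aqp8 were the succinate receptor gene Sucnr1 (0.979), the retinol dehydrogenase gene Rdh11 (0.972) and again Gstm7 (0.97). Those most like Loxl4 were the ubiquitin ligase gene Rnf144a (0.963), the receptor kinase gene Grk5 (0.955) and Lratd1 (0.953), and for Rnf125 they were Trmt9b (0.986), the phospholipase D gene Pld1 (0.971) and Hmgxb4 (0.969). Genes close to Ppard in this measure were Tmem170 (0.944) and the peroxisomal membrane gene Pxmp4 (0.942). The CJ-minus-NS estimates of these genes, also part of the likeness, were all below 0 at both ages, for example -0.84 ± 0.09 and -0.99 ± 0.09 for Sucnr1 and -0.26 ± 0.06 and -0.33 ± 0.06 for Pxmp4 at 12 and 30 weeks.

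The other genes were listed by family or pathway, but the lists were drawn up with earlier results of these data known. Their CJ-minus-NS differences are given with limma's test over all genes. Most genes named from a list were picked by these same values, called ones of largest change first, so they do not represent their list. At 12 weeks 4.44% of all genes were called (2.15% higher, 2.29% lower), and at 30 weeks 6.25% (1.77% higher, 4.48% lower), while the median difference of all genes was 0.03 at 12 weeks and -0.02 at 30 weeks. Of the nicotinic receptor subunits other than Chrna4, 4 of 15 passed the filter and 0 were called at either age, with medians of 0.01 and 0.03. Chrna2, another alpha subunit, differed by 0.01 ± 0.08 at 12 weeks and 0.23 ± 0.08 at 30 weeks (adjusted p = 0.955 and 0.114). Chrnb2, the beta subunit with which alpha 4 most often assembles, was not among the 4 that passed the filter.

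Of 8 aquaporin genes tested beside Aqp8, 0 were called at either age, and their medians were 0.12 and 0.05. Aqp9, the glycerol channel of hepatocytes, averaged 0.79 in CJ and 0.90 in NS mice at 12 weeks (-0.12 ± 0.09, adjusted p = 0.48) and 0.73 in CJ and 0.74 in NS mice at 30 weeks (-0.01 ± 0.09, adjusted p = 0.979). Aqp1 differed by 0.20 ± 0.07 (adjusted p = 0.111) and 0.01 ± 0.07 (0.981). The lysyl oxidase and collagen list gave 0 higher and 1 lower of 19 tested at 12 weeks, and 0 higher and 2 lower at 30 weeks, with medians of -0.02 and -0.05. Col4a1, a basement membrane collagen chain, fell by 0.30 ± 0.08 at 12 weeks (adjusted p = 0.0375) and by 0.41 ± 0.08 at 30 weeks (adjusted p = 0.00373). Serpinh1, the collagen chaperone HSP47, fell by 0.54 ± 0.09 at 30 weeks (adjusted p = 0.000942), with means of 0.56 in CJ and 1.1 in NS mice. The lysyl oxidase relatives Loxl1 (-0.20 ± 0.12 and -0.21 ± 0.12), Loxl2 (0.01 ± 0.10 and -0.26 ± 0.10) and Loxl3 (0.12 ± 0.10 and 0.03 ± 0.10) were not called at 12 or 30 weeks.

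Of 19 genes of the RIG-I pathway and of RING ligases related to Rnf125, 1 was lower at 12 weeks and 0 at 30 weeks, 0 were higher, and the medians were -0.03 and -0.09. The 1 gene was Tbk1, the kinase that activates interferon regulatory factors, which averaged -0.55 in CJ and -0.14 in NS mice at 12 weeks (-0.42 ± 0.12, adjusted p = 0.0462) and differed by -0.01 ± 0.12 at 30 weeks (0.989). The list around Ppard, of PPAR and RXR receptors, cofactors and PPAR targets, had the most calls: 3 of 30 higher and 3 lower at 12 weeks, and 2 higher and 2 lower at 30 weeks, with medians of 0.08 and 0.18. Pdk4, a kinase that holds back pyruvate oxidation, fell by 0.83 ± 0.22 at 12 weeks (adjusted p = 0.0333) and by 0.95 ± 0.22 at 30 weeks (0.0097). Plin2, a lipid droplet coat protein, fell by 0.44 ± 0.11 (adjusted p = 0.0236) and by 0.37 ± 0.11 (0.0408). Angptl4, an inhibitor of lipoprotein lipase, rose by 0.66 ± 0.17 at 12 weeks (adjusted p = 0.0262) and differed by 0.43 ± 0.17 at 30 weeks (0.133). Ppara, the PPAR that predominates in hepatocytes, rose by 0.36 ± 0.10 at 12 weeks (adjusted p = 0.0462), where it averaged 6.16 in CJ and 5.79 in NS mice, and differed by 0.27 ± 0.10 at 30 weeks (0.131). Other calls at 12 weeks were Rxrb, a retinoid X receptor, which rose by 0.21 ± 0.06 (adjusted p = 0.0369), and the peroxisomal enzyme gene Ehhadh, which fell by 0.54 ± 0.13 (0.0177). At 30 weeks Cyp4a14, a fatty acid hydroxylase, averaged 5.86 in CJ and 3.65 in NS mice (2.14 ± 0.53, adjusted p = 0.016), and Cpt1a, which admits fatty acids to mitochondria, rose by 0.43 ± 0.11 (0.0188). The directions were mixed within the list, and Pdk4 and Plin2 were lower at both ages.

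**Figure D5:**
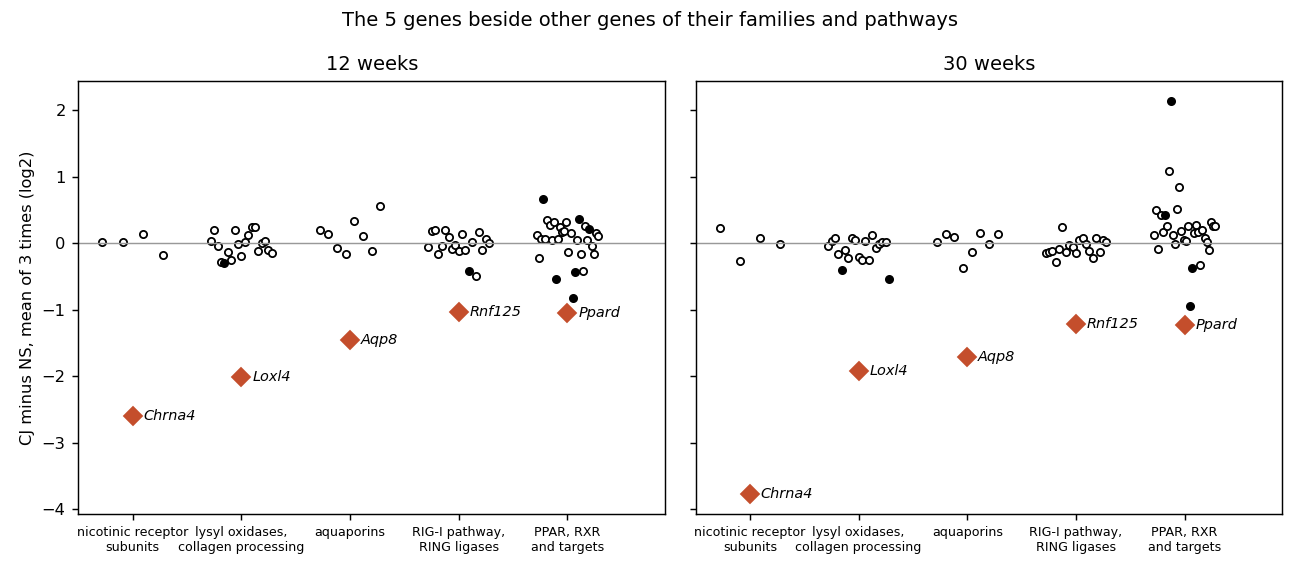
CJ minus NS averaged over the 3 times (vertical axis, log2) for each of the 5 genes (orange diamonds) and the other tested genes of its family or pathway (circles, filled where limma called them, open otherwise), at 12 weeks (left) and 30 weeks (right). The family members lie near 0 in most cases, and the widest spread is in the PPAR and RXR list, which reaches 2.14 for Cyp4a14 at 30 weeks.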

How the data were processed

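Liver RNA of 32 mice was measured on 1-colour Agilent arrays. For each array the authors deposited scanner output, whose processed signal is a background-subtracted intensity, per the file headers (Feature Extraction 11.0.1.1, against 9.1 in the submitters' processing notes). The authors also deposited a table of normalised log2 values, used as an alternative; it holds 15148 probes and no Loxl4. Here control spots and outlier spots were left out and spots of a probe averaged. Levels were log2 intensity minus the array's 75th percentile. A probe was kept if at least 1 group had it well above background on each of its arrays (30484 probes), 26582 had a symbol through the RefSeq table (GRCm38.p6), and the brightest probe stood for a gene. The 12 group means were fitted with limma 3.58.1 in R 4.3.3, taking slides as random blocks (8 slides, correlation 0.254) and Benjamini-Hochberg adjustment over 23105 genes, 14078 of them named, called under 0.05. Fitted differences allow for the slide, so they can differ slightly from those of plain means. A bound replaces a fold where a CJ group had no array well above background. Named genes were the 5 genes, up to 4 genes of each pathway list with called ones of largest change first, and the 3 genes most correlated with each; further family genes were added after their values were seen, and 1 gene correlated with Ppard is not reported here. The 5 genes and the lists were chosen with earlier results of these data known. On simulated data with 7662 genes the fit recovered 92% of genes changed 2-fold with age, and 68% and 92% of those changed with time of day at 12 and 30 weeks. In all, 12 alternatives were run. The normexp alternative added an offset of 50 to the corrected signals. Mouse numbers did not pair mice: the deviations of same-numbered mice correlated by -0.019 on average (160 pairs, -0.426 to 0.362).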

Additional observations from a re-analysis of the deposited data

Results flagged for a closer look

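The time course of Chrna4, averaged over CJ and NS mice, differed between 30 and 12 weeks (limma adjusted p = 0.00827 for time of day by age). It is listed here because a test of the difference between the ages passed its threshold. The fitted means at ZT2, ZT10 and ZT18 were -2.47, -3.28 and -0.76 at 30 weeks, and -0.42, -2.73 and -2.80 at 12 weeks. In NS mice the group means were 0.62, -1.46 and -0.02 at 30 weeks, and 0.26, -1.63 and -0.73 at 12 weeks. In CJ mice they were -5.51, -5.11 and -1.52 at 30 weeks, and -1.16, -4.02 and -4.64 at 12 weeks. CJ mice at ZT2 of 30 weeks and at ZT18 of 12 weeks had 0 arrays well above background. The change with age within 1 schedule was not tested. The adjusted p was 0.00182 to 0.0435 when any 1 mouse was left out. It was 0.224 after normexp correction with quantile normalisation (offset 50, range 1.2, against 4.09), 0.0846 with the slide as a fixed block (range 4.34) and 0.998 without the ZT2 groups (range 2.44). The probe was well above background on 7 of 16 CJ and 16 of 16 NS arrays.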

How the results depend on the processing

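No difference between schedules changed direction under 12 alternatives. No direction was scored for the time-of-day calls, and the hour of the highest mean moved between ZT2 and ZT18 for Ppard, and for Aqp8 at 30 weeks. In the fit without the ZT2 groups no gene could be highest at ZT2. Leaving out 1 mouse at a time kept the 12-week CJ-minus-NS difference of Chrna4 between -2.72 and -2.47 and the 30-week one between -4.04 and -3.55, the other 8 differences within 1.13 times of their values, and the number of the 5 genes varying with time of day at 30 weeks between 4 and 5. Of 1088 values so obtained, 1084 kept their side of the threshold or moved by less than the spread between mice. Leaving out a mouse of 1 age hardly touches an estimate of the other age, and uncalled results that stayed uncalled count as kept. Little is therefore read from that number. Under normexp correction (offset 50) with quantile normalisation the differences were -1.11 and -1.48 (Chrna4) and -0.73 and -0.58 (Loxl4) at 12 and 30 weeks, and 0 of 5 genes showed a time course that differed with age. That count was also 0 with the slide as a fixed block and 0 without the ZT2 groups. Without the ZT2 groups, time of day was called for 1 gene at 12 weeks and 2 at 30 weeks, and the differences were -1.85 for Aqp8 and -0.66 for Ppard at 12 weeks, and -2.52 for Chrna4, -0.83 for Rnf125 and -0.66 for Ppard at 30 weeks. Fewer mice and 1 fewer hour enter those fits; other causes were not tested. Low signal over background limits Chrna4 and Loxl4 in CJ mice, whose values there have no firm order.

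With the mouse number as a replicate block, no call changed: 5 of 5 genes varied with time of day at both ages, 0 of 5 with age, and the time course of Chrna4 by age had an adjusted p of 0.0154. The numbers share nothing else in the labels. A correlation over 0.1 was found in 31 of 160 same-numbered pairs of mice and in 82 of 308 pairs with different numbers.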
